A study of Homo sapiens with 8 samples.

Results

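The ATP-binding cassette (ABC) transporter genes of IMR90 cells were taken as every gene of the count tables whose symbol is ABC, a subfamily letter from A to G and a number. The rule found 46 of 28265 genes, of which 12 belong to subfamily ABCA, 9 to ABCB, 12 to ABCC, 4 to ABCD, 1 to ABCE, 3 to ABCF and 5 to ABCG. Family members that carry other symbols, such as CFTR and TAP1, fall outside the rule. IMR90 are primary human fetal lung fibroblasts. Factory RNA-Seq, which aims at RNA held at sites of transcription, was applied to 2 libraries in each of 4 conditions, all from low-passage cells. The control (labelled young) was wild type and is not stated to have received the solvent, the ICM 3 d and ICM 6 d groups were exposed for 3 and 6 days to inflachromene (ICM), a small molecule that binds HMGB1 and HMGB2, and the fourth is labelled MetaICM, a treatment that neither the labels nor the study's text explain. The labels describe poly(A) selection, and the files hold read pairs on exons, so intronic signal was not analysed here. The labels do not say that the 2 libraries of a condition came from separate cultures, so p-values measure only the spread between these libraries, which may be technical.

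ABC proteins bind and hydrolyse ATP through paired nucleotide-binding domains, and most of them use it to move a substrate across a membrane. Some carry all domains in a single chain, whereas others are made as shorter chains that work as dimers. Subfamily A moves lipids, subfamily C holds the multidrug resistance proteins that export conjugates of glutathione, glucuronide and sulfate, subfamily D works mainly in peroxisomes, and the proteins of subfamilies E and F have no membrane part and act on the ribosome. Among them, ABCA1 hands cholesterol to apolipoproteins, and ABCC1 exports glutathione conjugates.

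The libraries held from 12095123 to 23166405 counted pairs. Levels are given as CPM (counts per 1e6, with library sizes scaled by TMM) and, between genes, per kilobase of exon (RPKM). Of the 46 genes, 40 to 44 had at least 1 count in a library and 30 to 34 reached 1 CPM. In sum they received 2148 ± 61.3 CPM (SD, n = 2) in the control, 3097 ± 77.9 CPM after 3 days, 2749 ± 61.3 CPM after 6 days and 2139 ± 105 CPM in MetaICM. The libraries of both ICM time points thus lay above those of the other conditions. ABCC1, ABCC4 and ABCC3 together took 49.2% to 56.1% of this sum in every library. Per length, ABCC1 was the highest member in each condition, with a mean level of 90.2 RPKM in the control, and ABCC4 followed with 74.2 RPKM. Next in the control came ABCE1 (33.2 RPKM), ABCD3 (25.4 RPKM), ABCF1 (24.2 RPKM) and ABCC3 (22.0 RPKM), and the last 3 overlapped their neighbours in this order. ABCF1 is also annotated on 6 other reference sequences, so its level and rank are less certain. After 3 days the order below ABCC4 was ABCC3 (57.5 RPKM), ABCB6 (47.4 RPKM) and ABCA1 (31.3 RPKM), and ABCC3 and ABCB6 overlapped no neighbour. In MetaICM the libraries of ABCC1 (78.0 RPKM) and ABCC4 (75.8 RPKM) overlapped.

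The fibroblast markers moved with the ICM groups. Of 12 markers such as COL1A1, DCN and PDGFRA, 9 were lower after 3 days, when 13.2% of all genes tested were lower. With 17.2% of all genes lower after 6 days, 8 of the 11 markers tested were lower. Their summed level was 38836 to 40702 CPM in the control, 21015 to 22991 CPM after 3 days, 15955 to 16383 CPM after 6 days and 36366 to 36724 CPM in MetaICM. Of 7 epithelial markers 2 were tested and none was called in any comparison, and 4 hepatocyte markers summed to at most 0.431 CPM in every library. The 6 immune markers summed to 5.08 to 6.55 CPM in the control and 14.3 to 22.5 CPM in the other conditions, with CD68 making up most of this level and CD3E at 0 counts in all libraries. The 6 endothelial markers summed to 129 to 235 CPM, nearly all of it from TEK, while CDH5 had no count after 6 days or in MetaICM. Some markers of these lists were called higher than in the control. VIM, a fibroblast marker, was called in MetaICM, with a log2 fold change of 0.68. CD68 was called after 3 days, after 6 days and in MetaICM, with log2 fold changes of 1.92, 1.90 and 1.41. CD14 was called in MetaICM (1.44) and VWF after 6 days (0.88). The CD14 call rests on few counts, with 6 and 7 in the control and 22 and 32 in MetaICM. The part of these shifts in the results for the transporters was not tested. In such bulk libraries fewer cells of a type and less RNA per cell cannot be told apart.

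Against the control, the transporter genes moved upward more often than downward at both ICM time points, whereas their shares called in MetaICM were close to those of all genes. A gene was called with an adjusted p under 0.05 in the quasi-likelihood test of edgeR (Benjamini-Hochberg adjusted over all genes tested) and an absolute log2 fold change (log2FC) over 0.6. After 3 days 10 of 37 tested members were called higher and 3 lower, when 8.85% of all genes tested were higher and 13.2% lower. After 6 days 12 of 38 were higher and 2 lower, against 13.3% and 17.2% of all genes. The median log2FC over the tested members was 0.34 after 3 days and 0.40 after 6 days, beside 0.01 and −0.00 over all genes tested. In MetaICM 3 of 37 members were higher than in the control and 2 lower, close to the 7.41% and 8.99% of all genes, with a median of 0.03. These 3 comparisons share the control libraries.

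Between the treated groups, 6 of 38 members were higher after 6 days than after 3 days and 2 lower, beside 3.53% and 4.54% of all genes. In MetaICM 4 of 38 members were higher than after 6 days of ICM, beside 15.7% of all genes, and 11 were lower, beside 12.0%. All of these counts rest on 39 members that had enough counts for at least 1 comparison. Of these, 21 were called at least once and 18 never. The share of all genes called at least once was not determined, so these counts have no background beside them. Since filtering keeps genes through the condition in which they are high, the shares are given only for the members that passed it.

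**Figure D1:**
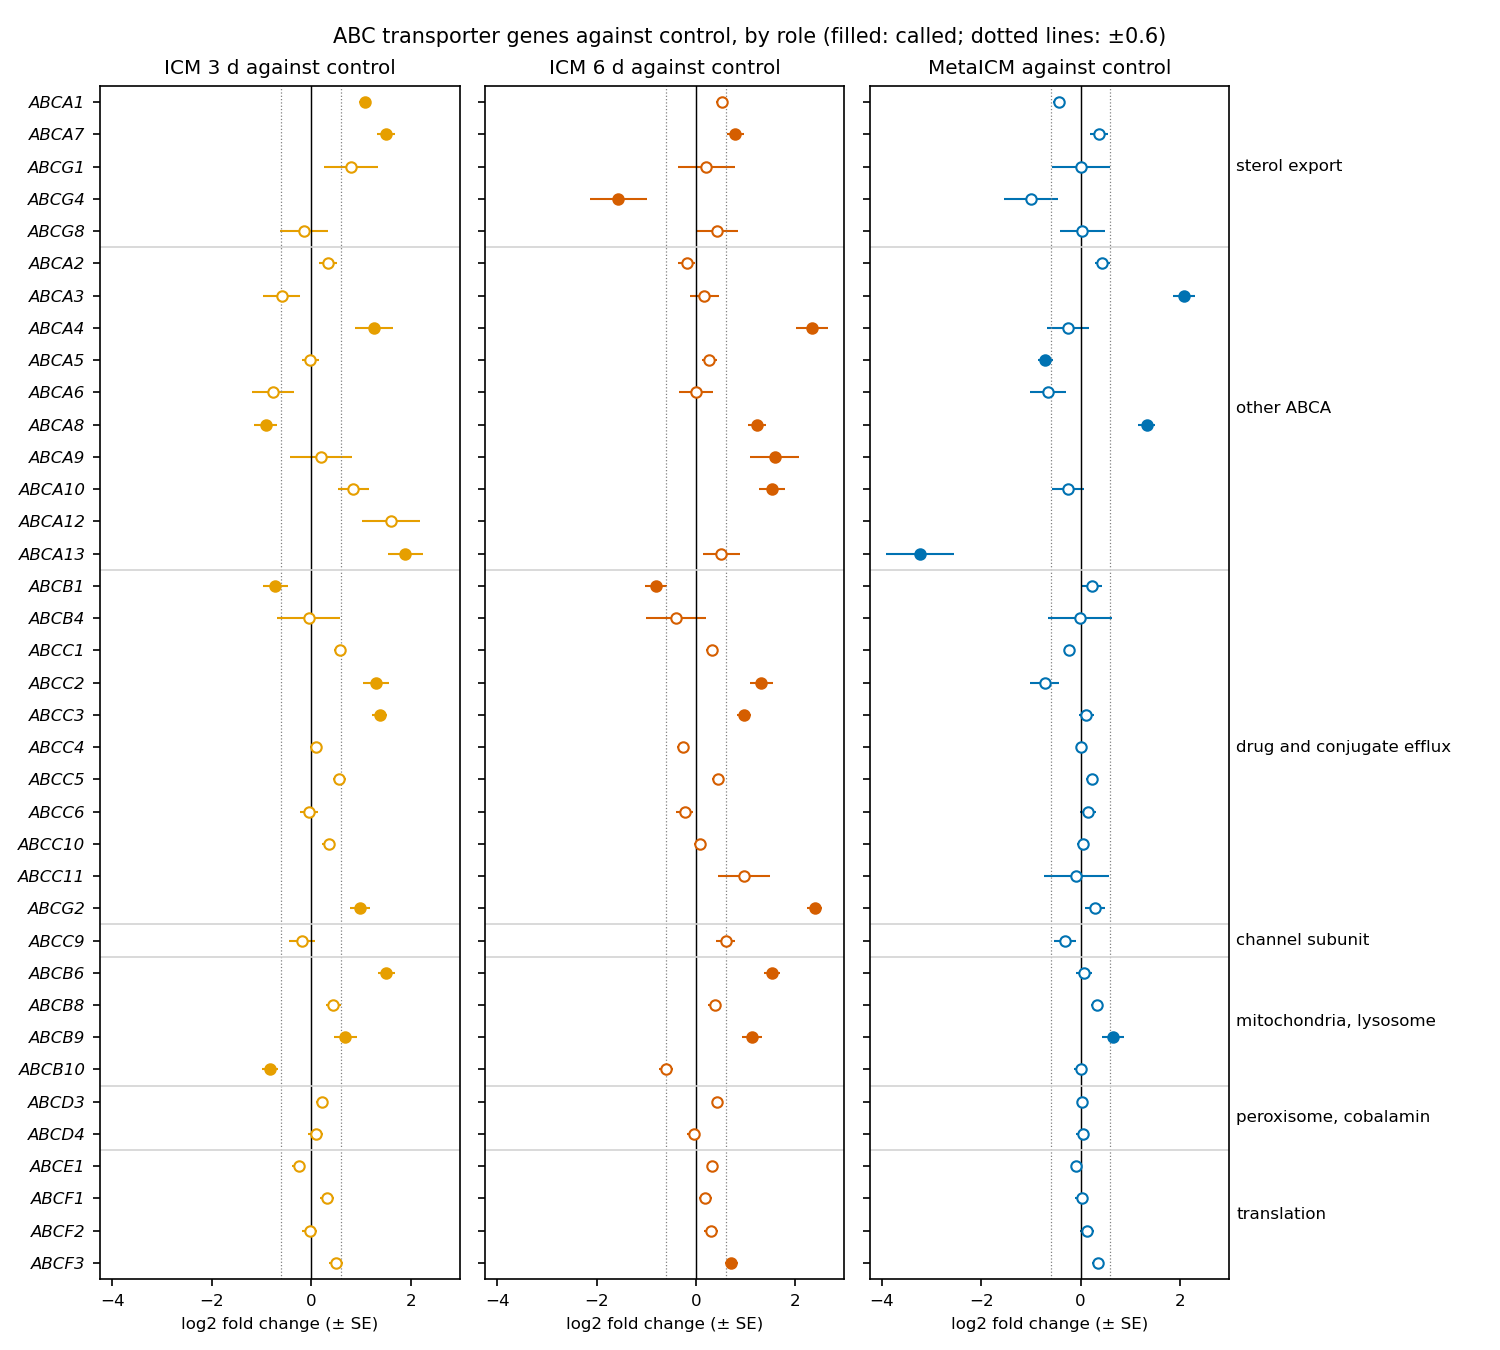
Log2 fold change of the tested ABC transporter genes against the control after 3 days of ICM, after 6 days of ICM and in MetaICM (horizontal axis, with its standard error, from fits on 2 libraries per condition), with the genes grouped by role. Filled points were called; of those shown, 9 and 11 members lie called to the right in the ICM panels and 3 in the MetaICM panel.

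Among the exporters of drugs and conjugates, ABCC2, ABCC3 and ABCG2 rose at both ICM time points and ABCB1 fell at both. ABCC3 (chr17:48712242-48769614 of hg19, plus strand), which exports glucuronides and bile acids across the basolateral membrane, received 149 and 106 CPM in the control, 341 and 326 CPM after 3 days, 256 and 248 CPM after 6 days and 143 and 136 CPM in MetaICM. Both ICM groups lay above all control and MetaICM libraries. Its log2FC against the control was 1.38 (SE 0.15, adjusted p = 3.4e-05) after 3 days and 0.97 (SE 0.15, adjusted p = 0.00049) after 6 days. ABCC2 (chr10:101542397-101612351, plus strand), its apical counterpart, was rarer, with 3.33 and 2.46 CPM in the control, 6.69 and 7.84 CPM after 3 days, 7.27 and 7.49 CPM after 6 days and 1.84 and 1.75 CPM in MetaICM. The libraries of the ICM groups overlapped each other and lay above the rest. The log2FC of ABCC2 was 1.30 (SE 0.26, adjusted p = 0.0029) after 3 days and 1.32 (SE 0.23, adjusted p = 0.0012) after 6 days. In MetaICM it was −0.72 (adjusted p = 0.083), and was called with all 8 libraries in one fit (log2FC −0.72, adjusted p = 0.042) and without replicate 2 of the control (log2FC −0.90, adjusted p = 0.021).

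ABCG2 (chr4:89011416-89152778, minus strand), the breast cancer resistance protein, which also exports porphyrins and urate, rose in steps. Its level was 5.83 and 5.73 CPM in the control, 12.04 and 10.97 CPM after 3 days, 30.5 and 30.6 CPM after 6 days and 6.50 and 7.78 CPM in MetaICM. No library of either ICM group overlapped another condition. The log2FC against the control was 0.98 (SE 0.20, adjusted p = 0.0036) after 3 days and 2.39 (SE 0.15, adjusted p = 1.2e-06) after 6 days. Between the time points ABCG2 rose by 1.40 (SE 0.12, adjusted p = 1.7e-07). ABCB1 (chr7:87132333-87342639, minus strand), which encodes P-glycoprotein, went the other way, with 8.33 and 12.1 CPM in the control, 5.58 and 6.91 CPM after 3 days, 5.71 and 6.00 CPM after 6 days and 11.02 and 13.0 CPM in MetaICM. The ICM libraries lay below all others, while control and MetaICM overlapped. Its log2FC was −0.72 (adjusted p = 0.045) after 3 days and −0.80 (adjusted p = 0.015) after 6 days. Both calls depended on single libraries. At 3 days the call was lost with DESeq2 in place of edgeR (log2FC −0.72, adjusted p = 0.089), with library totals (log2FC −0.64, adjusted p = 0.069), without replicate 1 of the 3-day group (log2FC −0.56, adjusted p = 0.27), without replicate 2 of the 3-day group (log2FC −0.87, adjusted p = 0.054) and without replicate 2 of the control (log2FC −0.44, adjusted p = 0.21). At 6 days it was lost without replicate 1 of the 6-day group (log2FC −0.76, adjusted p = 0.079), without replicate 2 of the 6-day group (log2FC −0.84, adjusted p = 0.051) and without replicate 2 of the control (log2FC −0.51, adjusted p = 0.038).

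The most abundant exporters were called in no comparison. ABCC1 (chr16:16043473-16236910, plus strand), the first multidrug resistance protein and an exporter of glutathione conjugates, had 575 and 598 CPM in the control, 889 and 878 CPM after 3 days, 756 and 716 CPM after 6 days and 529 and 485 CPM in MetaICM. The 3-day libraries were the highest and the MetaICM libraries the lowest, without overlap. Its log2FC of 0.58 (SE 0.12, adjusted p = 0.0043) after 3 days passed the test but not the cutoff of 0.6, which it passed with library totals and without replicate 2 of the control. After 6 days it was 0.31 (adjusted p = 0.041). ABCC4 (chr13:95672083-95953705, minus strand), which exports cyclic nucleotides and prostaglandins, had 453 and 477 CPM in the control, 504 and 502 CPM after 3 days, 413 and 366 CPM after 6 days and 500.0 and 449.9 CPM in MetaICM. Its log2FC was 0.10 (adjusted p = 0.56) after 3 days and −0.27 (adjusted p = 0.080) after 6 days, and the 6-day libraries were the lowest of the 4 conditions.

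ABCC5 (chr3:183637724-183735672, minus strand), another exporter of cyclic nucleotides, had 61.5 and 67.4 CPM in the control, 97.4 and 94.2 CPM after 3 days, 87.5 and 89.7 CPM after 6 days and 78.5 and 73.4 CPM in MetaICM. The ICM libraries were above those of the control, and the log2FC of 0.56 (adjusted p = 0.0065) after 3 days and 0.45 (adjusted p = 0.011) after 6 days passed the test but not the cutoff. At 3 days ABCC5 passed the cutoff with library totals (log2FC 0.64, adjusted p = 0.0031) and without replicate 2 of the control (log2FC 0.62, adjusted p = 0.00029). ABCC10 (chr6:43395279-43418165, plus strand) had 69.1 and 56.9 CPM in the control, 83.0 and 78.8 CPM after 3 days, 68.9 and 65.3 CPM after 6 days and 67.6 and 64.4 CPM in MetaICM, with a log2FC of 0.35 (adjusted p = 0.071) and 0.08 (adjusted p = 0.65) after 3 and 6 days. ABCC6 (chr16:16243422-16317328, minus strand), whose loss causes pseudoxanthoma elasticum, had 15.3 and 19.1 CPM in the control, 15.8 and 17.7 CPM after 3 days, 15.8 and 13.8 CPM after 6 days and 20.9 and 17.5 CPM in MetaICM. All conditions of ABCC6 overlapped the control, and reads shared with its near-identical pseudogenes make its counts uncertain. Neither ABCB4, a phospholipid exporter of the bile canaliculus, nor ABCC11, which exports lipophilic anions, was called in any comparison, and both stayed below 1 CPM in every library.

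The promoter sequence of ABCC2 is shown as that of an exporter that rose at both time points and was lowest in MetaICM. It is the run of 250 bases before the RefSeq start, at chr10:101542147-101542396 of hg19 on the plus strand. Capitals mark a match to TATAAA, which begins 236 bases before the start.
ABCC2: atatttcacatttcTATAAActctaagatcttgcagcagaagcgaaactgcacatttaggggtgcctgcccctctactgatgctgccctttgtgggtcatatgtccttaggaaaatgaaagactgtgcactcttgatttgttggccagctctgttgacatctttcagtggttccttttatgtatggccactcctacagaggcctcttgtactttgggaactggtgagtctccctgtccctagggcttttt

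Genes of glutathione synthesis, conjugation and breakdown were also called. The background was 8.85% of all genes higher and 13.2% lower after 3 days, and 13.3% and 17.2% after 6 days. Of 24 tested, 15 were higher and 3 lower after 3 days, with a median log2FC of 0.82, and 16 were higher and 3 lower after 6 days, with a median of 0.95. In MetaICM 2 were higher and 1 lower than in the control, beside 7.41% and 8.99% of all genes, with a median of 0.14. GCLM, the modifier subunit of the enzyme that limits glutathione synthesis, had 70.4 ± 0.796 CPM (SD, n = 2) in the control, 335 ± 8.55 CPM after 3 days, 516 ± 27.3 CPM after 6 days and 82.0 ± 1.82 CPM in MetaICM. Its log2FC was 2.24 (adjusted p = 8.3e-08) after 3 days and 2.86 (adjusted p = 7.4e-08) after 6 days. GSTM5, a glutathione transferase that shares sequence with its neighbours in the family and is therefore counted with some uncertainty, changed by 2.17 (adjusted p = 0.00013) and 2.07 (adjusted p = 0.00015). GGT5, which cleaves glutathione conjugates outside the cell, changed by −2.58 (adjusted p = 5.4e-05) and −3.05 (adjusted p = 2.5e-05), the largest fall of the list.

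Of 17 tested xenobiotic receptors, regulators and enzymes, 7 were higher and none lower after 3 days, beside 8.85% and 13.2% of all genes. At an unadjusted p under 0.05 in edgeR's test 2 were lower at that time, and DESeq2 called none lower. After 6 days 7 were higher and 1 lower, beside 13.3% and 17.2% of all genes. NQO1, a quinone reductase, changed by 2.35 (adjusted p = 1.8e-07) after 3 days and 2.64 (adjusted p = 1.9e-07) after 6 days, and CYP1B1, a cytochrome P450, by 0.97 (adjusted p = 0.00013) and 1.93 (adjusted p = 9.6e-07). EPHX1, an epoxide hydrolase, changed by 1.61 (adjusted p = 5.0e-06) and 1.71 (adjusted p = 2.5e-06). In MetaICM 1 gene of this list was higher than in the control and 2 lower, beside 7.41% and 8.99% of all genes. CYP1B1 was among the lower ones, with −1.99 (adjusted p = 2.4e-05). Medians of the list were 0.51, 0.58 and 0.18 in these 3 comparisons.

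**Figure D2:**
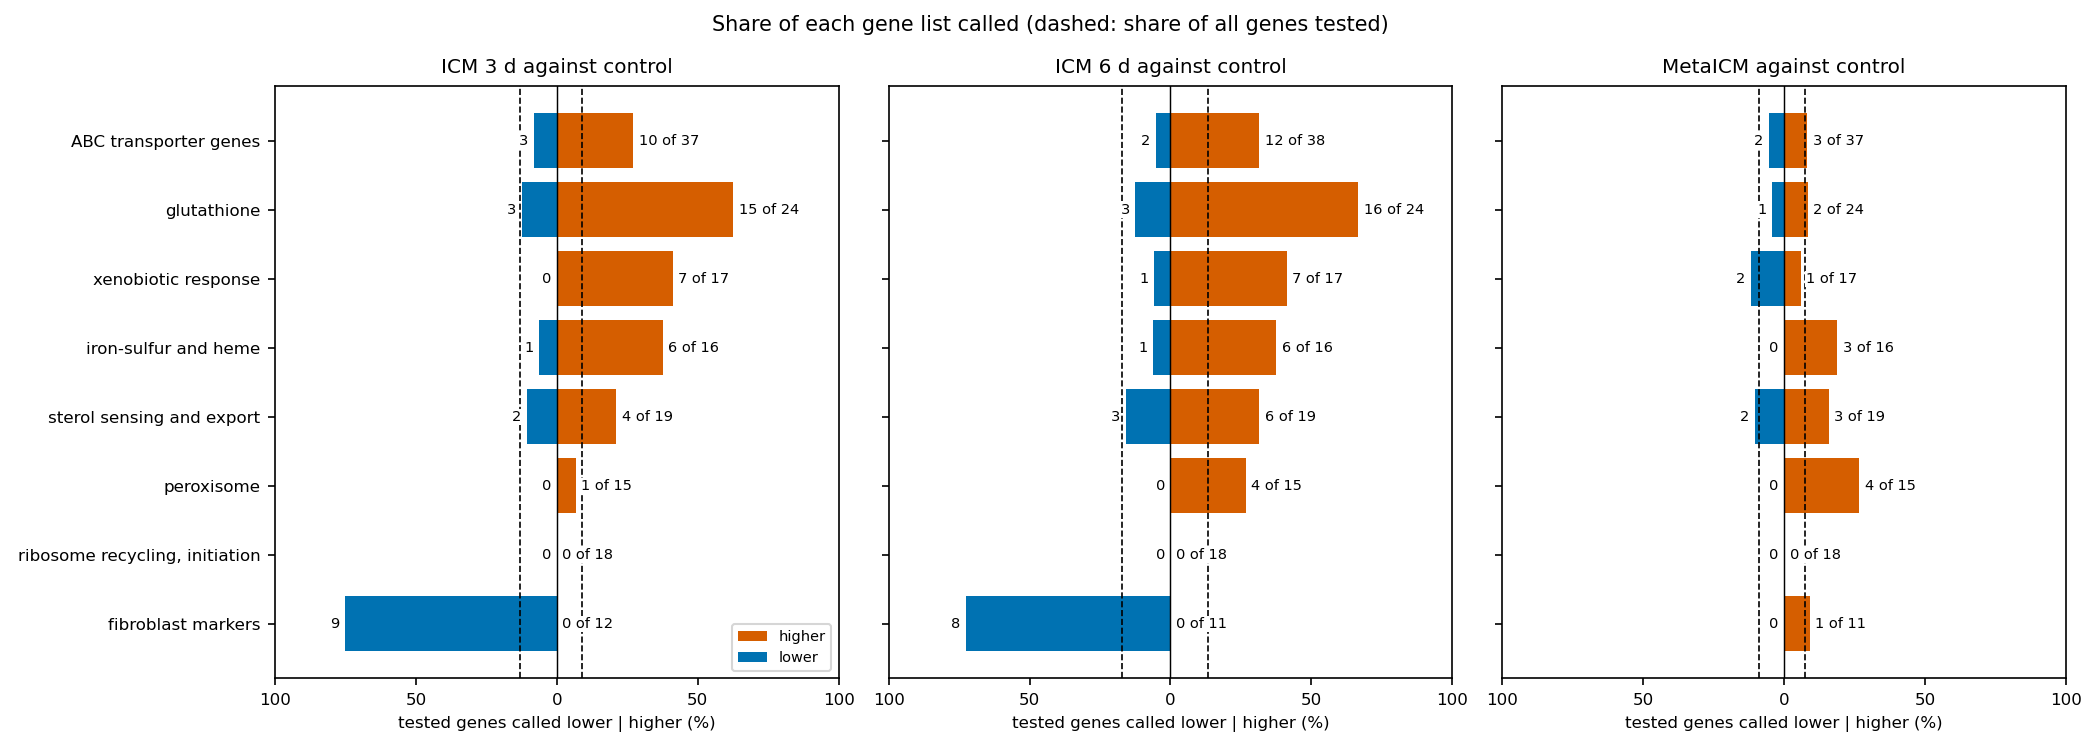
Percent of the tested genes of each list that were called higher (to the right) or lower (to the left) than the control in 3 comparisons, with the number called beside each bar; dashed lines give the percent of all genes tested. Glutathione genes reach 15 and 16 of 24 higher in the ICM panels and 2 of 24 in the MetaICM panel.

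Of the sterol exporters, ABCA1 rose after 3 days and ABCA7 at both time points, while ABCG4 fell after 6 days. ABCA1 (chr9:107543287-107690436, minus strand), which loads cholesterol and phospholipid onto apolipoprotein A-I, received 158 and 146 CPM in the control, 333 and 319 CPM after 3 days, 226 and 214 CPM after 6 days and 126 and 104 CPM in MetaICM. The conditions did not overlap, with 3 days highest and MetaICM lowest. Against the control the log2FC of ABCA1 was 1.09 (SE 0.12, adjusted p = 3.2e-05) after 3 days and 0.52 (SE 0.11, adjusted p = 0.0032) after 6 days, the second short of the cutoff. Between the time points it was −0.57 (adjusted p = 9.3e-05), also short of it except with library totals. ABCA7 (chr19:1040106-1065570, plus strand), the closest relative of ABCA1, received 7.80 and 9.01 CPM in the control, 26.6 and 21.3 CPM after 3 days, 14.5 and 14.7 CPM after 6 days and 10.02 and 11.9 CPM in MetaICM. Here too the 3-day libraries were highest, the 6-day libraries came next, and no library overlapped between conditions. The log2FC was 1.51 (SE 0.19, adjusted p = 7.9e-05) after 3 days and 0.79 (SE 0.17, adjusted p = 0.0038) after 6 days, and ABCA7 fell by 0.72 on the log2 scale between them (adjusted p = 0.00065). That fall was below the cutoff without replicate 1 of the 3-day group (log2FC −0.56).

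ABCG4 (chr11:119019762-119033374, plus strand), a partner of ABCG1 in sterol export, was rare, with 10 and 15 counts in the control, 6 and 7 counts after 3 days, 5 and 6 after 6 days and 7 and 12 in MetaICM. Its 6-day libraries lay below both control libraries, and the log2FC was −1.56 (SE 0.58, adjusted p = 0.048). The call was lost with DESeq2 in place of edgeR (log2FC −1.62, adjusted p = 0.23), with library totals (log2FC −1.52, adjusted p = 0.053), with all genes that have a count (log2FC −1.55, adjusted p = 0.10), without replicate 1 of the 6-day group (log2FC −1.45, adjusted p = 0.24), without replicate 2 of the 6-day group (log2FC −1.70, adjusted p = 0.18) and without replicate 2 of the control (log2FC −1.0002, adjusted p = 0.31). ABCG1 was called in no comparison at up to 1.26 CPM, and its control libraries held 16 and 3 counts. ABCG8, which works with ABCG5 in the excretion of plant sterols, had 8 to 23 counts in a library and was not called either.

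Of 19 tested sterol-sensing receptors and partners of sterol export, 4 were higher and 2 lower after 3 days, beside 8.85% and 13.2% of all genes. After 6 days 6 were higher and 3 lower, beside 13.3% and 17.2% of all genes. The medians of the list were 0.10 and 0.02. NPC1, which releases cholesterol from lysosomes, changed by 1.23 (adjusted p = 2.0e-05) after 3 days and 1.33 (adjusted p = 1.1e-05) after 6 days. PLTP, a phospholipid transfer protein, changed by −1.06 (adjusted p = 0.00017) and −1.29 (adjusted p = 7.4e-05). APOE, an acceptor of exported lipid, changed by −2.09 (adjusted p = 0.0087) after 6 days. It was near the limit of detection, with 15 and 15 counts in the control and 5 and 4 after 6 days. In MetaICM 3 of the 19 were higher and 2 lower than in the control, beside 7.41% and 8.99% of all genes.

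The ABCA1 promoter is shown as that of the most abundant member of subfamily A. It covers chr9:107690437-107690686 of hg19 on the minus strand, and TATAAA, in capitals, begins 31 bases before the start.
ABCA1: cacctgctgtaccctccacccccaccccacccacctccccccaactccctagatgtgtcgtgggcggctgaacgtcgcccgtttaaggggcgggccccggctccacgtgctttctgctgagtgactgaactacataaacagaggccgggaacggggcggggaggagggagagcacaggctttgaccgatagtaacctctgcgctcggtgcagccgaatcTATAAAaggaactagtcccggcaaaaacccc

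A run of 5 neighbouring genes of subfamily A on the long arm of chromosome 17 moved in different ways. They lie on the minus strand in the order ABCA8 (chr17:66863428-66951533), ABCA9 (chr17:66970629-67057068), ABCA6 (chr17:67074843-67138036), ABCA10 (chr17:67144148-67240956) and ABCA5 (chr17:67240452-67323274). The gaps between the first 4 are 19095, 17774 and 6111 bases, and ABCA10 and ABCA5 overlap, with 287 exon bases in common on the same strand that cannot be given to either gene. These proteins are lipid transporters of the ABCA6-like group, and ABCA8 has been tied to sphingomyelin and cholesterol efflux.

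ABCA8 received 10.8 and 15.0 CPM in the control, 7.44 and 6.18 CPM after 3 days, 33.1 and 27.8 CPM after 6 days and 34.7 and 30.4 CPM in MetaICM. The 3-day libraries were the lowest and the 6-day and MetaICM libraries, which overlapped, the highest. Its log2FC against the control was −0.92 (SE 0.23, adjusted p = 0.0094) after 3 days, 1.24 (SE 0.18, adjusted p = 0.00041) after 6 days and 1.33 (SE 0.17, adjusted p = 0.00077) in MetaICM. From 3 to 6 days it rose by 2.14 (SE 0.15, adjusted p = 5.9e-09). The lower level at 3 days was short of the threshold without replicate 2 of the 3-day group (log2FC −0.80, adjusted p = 0.059). ABCA10 received 1.55 and 1.88 CPM in the control, 2.93 and 3.26 CPM after 3 days, 4.85 and 5.10 CPM after 6 days and 1.49 and 1.40 CPM in MetaICM. Both ICM groups lay above the control, with 6 days highest, and MetaICM lay below it. The log2FC of ABCA10 was 0.85 (adjusted p = 0.063) after 3 days, 1.53 (SE 0.27, adjusted p = 0.0011) after 6 days and 0.68 (adjusted p = 0.040) between them. At 3 days ABCA10 was called with the replicate block (log2FC 0.85, adjusted p = 0.029), with library totals (log2FC 0.92, adjusted p = 0.045), with all genes that have a count (log2FC 0.86, adjusted p = 0.042) and with all 8 libraries in one fit (log2FC 0.85, adjusted p = 0.022). The call between the time points was lost with DESeq2 in place of edgeR (log2FC 0.69, adjusted p = 0.20), with library totals (log2FC 0.66, adjusted p = 0.051), with all 8 libraries in one fit (log2FC 0.69, adjusted p = 0.057), with the libraries thinned to the smallest total (log2FC 0.59, adjusted p = 0.15), without replicate 1 of the 3-day group (log2FC 0.59, adjusted p = 0.12), without replicate 1 of the 6-day group (log2FC 0.73, adjusted p = 0.13) and without replicate 2 of the 6-day group (log2FC 0.64, adjusted p = 0.21).

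ABCA9 was near the limit of detection, with 5 and 10 counts in the control, 10 and 12 counts after 3 days, 26 and 34 after 6 days and 7 and 7 in MetaICM. Its 6-day libraries were above all others, and the log2FC was 1.59 (SE 0.49, adjusted p = 0.024) against the control and 1.38 (adjusted p = 0.024) against 3 days. The call against the control was lost with DESeq2 in place of edgeR (log2FC 1.56, adjusted p = 0.13), without replicate 1 of the 6-day group (log2FC 1.75, adjusted p = 0.051), without replicate 2 of the 6-day group (log2FC 1.38, adjusted p = 0.16) and without replicate 1 of the control (log2FC 0.94, adjusted p = 0.16). Against 3 days it was lost with DESeq2 in place of edgeR (log2FC 1.37, adjusted p = 0.18), with all 8 libraries in one fit (log2FC 1.38, adjusted p = 0.056), with the libraries thinned to the smallest total (log2FC 1.29, adjusted p = 0.053), without replicate 1 of the 3-day group (log2FC 0.98, adjusted p = 0.18) and without replicate 2 of the 6-day group (log2FC 1.18, adjusted p = 0.22). ABCA9 shares 101 exon bases with the antisense gene ABCA9-AS1, and the counting did not use strand. ABCA6, between them, had 26 and 32 counts in the control, 20 and 23 counts after 3 days, 38 and 39 after 6 days and 24 and 32 in MetaICM and was called in no comparison, with a log2FC of −0.77 (adjusted p = 0.19) after 3 days and 0.00 (adjusted p = 0.99) after 6 days. With at least 10 counts required in every library, it was called lower in MetaICM than after 6 days (log2FC −0.66, adjusted p = 0.047).

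ABCA5, at the other end, received 19.4 and 23.1 CPM in the control, 19.3 and 23.00 CPM after 3 days, 24.1 and 27.5 CPM after 6 days and 12.6 and 13.6 CPM in MetaICM. Control and 3-day libraries overlapped and MetaICM was the lowest. The log2FC was −0.02 (adjusted p = 0.96) after 3 days and 0.27 (adjusted p = 0.18) after 6 days, while MetaICM differed from the control by −0.71 (SE 0.15, adjusted p = 0.0079). That call was lost with the libraries thinned to the smallest total (log2FC −0.54, adjusted p = 0.038), without replicate 1 of MetaICM (log2FC −0.64, adjusted p = 0.10), without replicate 2 of MetaICM (log2FC −0.75, adjusted p = 0.073) and without replicate 2 of the control (log2FC −0.57, adjusted p = 0.00076). Compared with 6 days of ICM, MetaICM was lower for ABCA5, ABCA9 and ABCA10, with a log2FC of −0.98 (adjusted p = 1.5e-07), −2.28 (adjusted p = 8.2e-05) and −1.79 (adjusted p = 1.6e-06) in this order. ABCA8 did not pass the test, with 0.09 (adjusted p = 0.47).

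**Figure D3:**
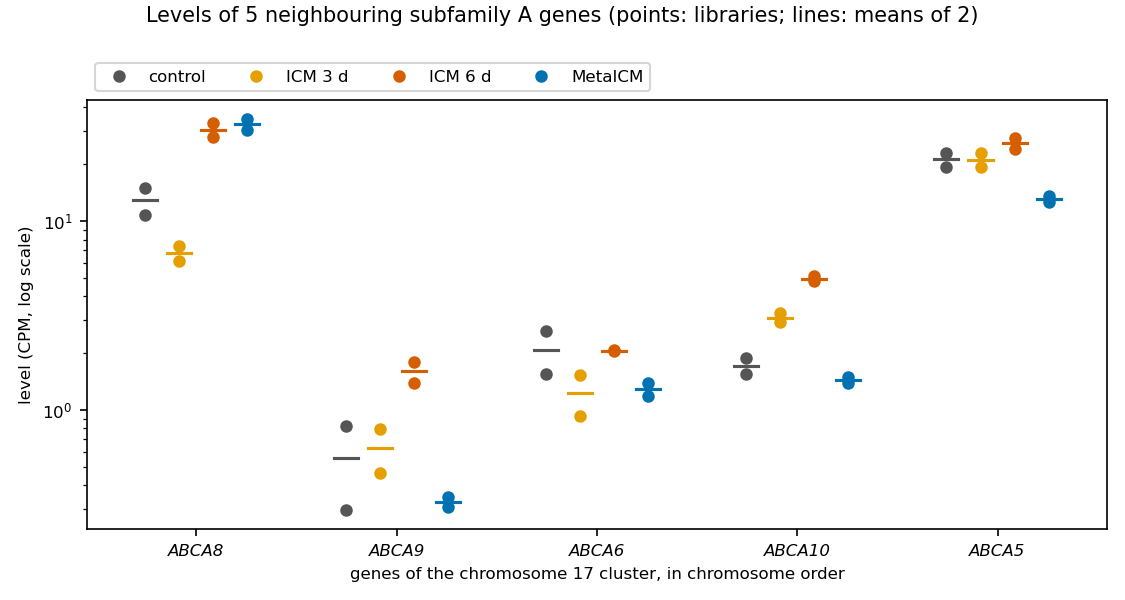
Level in CPM (vertical axis, log scale) of the 5 neighbouring subfamily A genes in chromosome order, with 1 point for each of 2 libraries per condition and lines at the means. ABCA8 is lowest after 3 days and highest after 6 days and in MetaICM, whereas ABCA9 and ABCA10 are highest after 6 days and have their lowest means in MetaICM.

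The promoters of ABCA9, ABCA6, ABCA10 and ABCA5 are shown because these neighbours differ in level and in response. They lie on the minus strand of hg19 at chr17:67057069-67057318, chr17:67138037-67138286, chr17:67240990-67241239 and chr17:67323275-67323524. Their GC content is 39.2%, 40.8%, 23.6% and 79.2% in this order, beside a median of 58.0% over all RefSeq promoters. ABCA10 has a second RefSeq start 15991 bases inside the gene, which is not shown. Capitals mark TATAAA in ABCA9, which begins 82 bases before the start, and in ABCA10 its reverse complement TTTATA, which begins 34 bases before the start.
ABCA9: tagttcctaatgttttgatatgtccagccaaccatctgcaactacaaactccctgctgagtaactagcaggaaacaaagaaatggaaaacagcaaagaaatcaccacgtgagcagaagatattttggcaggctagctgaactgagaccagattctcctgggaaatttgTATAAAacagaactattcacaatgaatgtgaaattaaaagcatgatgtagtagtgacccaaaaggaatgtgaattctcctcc
ABCA6: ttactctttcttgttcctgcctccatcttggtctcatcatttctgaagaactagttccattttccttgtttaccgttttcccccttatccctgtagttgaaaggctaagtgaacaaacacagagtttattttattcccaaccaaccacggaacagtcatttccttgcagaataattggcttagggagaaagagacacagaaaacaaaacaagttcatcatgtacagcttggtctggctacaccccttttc
ABCA10: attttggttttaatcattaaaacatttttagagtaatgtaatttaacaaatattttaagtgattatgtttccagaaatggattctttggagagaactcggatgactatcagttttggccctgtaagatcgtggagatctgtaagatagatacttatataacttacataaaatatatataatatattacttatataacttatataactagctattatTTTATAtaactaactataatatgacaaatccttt
ABCA5: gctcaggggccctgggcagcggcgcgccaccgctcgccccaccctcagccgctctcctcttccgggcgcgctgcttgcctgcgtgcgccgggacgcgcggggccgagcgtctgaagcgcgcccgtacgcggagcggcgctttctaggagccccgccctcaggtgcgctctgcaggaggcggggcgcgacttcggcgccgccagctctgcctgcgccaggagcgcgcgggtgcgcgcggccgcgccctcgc

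Elsewhere in subfamily A, ABCA4 rose with ICM and ABCA3 was highest in MetaICM. ABCA4 (chr1:94458390-94586704, minus strand), known as the retinoid transporter of photoreceptors, received 1.49 and 0.737 CPM in the control, 3.07 and 2.46 CPM after 3 days, 5.33 and 6.48 CPM after 6 days and 0.943 and 1.01 CPM in MetaICM. The levels stepped up from control to 3 and to 6 days, and control and MetaICM overlapped. Its log2FC was 1.26 (SE 0.38, adjusted p = 0.026) after 3 days, 2.33 (SE 0.32, adjusted p = 0.00026) after 6 days and 1.07 (SE 0.23, adjusted p = 0.0026) between them. The call at 3 days was lost with DESeq2 in place of edgeR (log2FC 1.28, adjusted p = 0.11), without replicate 1 of the 3-day group (log2FC 1.09, adjusted p = 0.19) and without replicate 2 of the control (log2FC 0.88, adjusted p = 0.11). ABCA3 (chr16:2325882-2390729, minus strand), the surfactant lipid transporter of alveolar cells, received 1.96 and 2.05 CPM in the control, 1.12 and 1.595 CPM after 3 days, 2.26 and 2.28 CPM after 6 days and 8.58 and 8.66 CPM in MetaICM. Both MetaICM libraries stood above all 6 others. The log2FC of ABCA3 in MetaICM was 2.09 (SE 0.22, adjusted p = 0.00027) against the control and 1.92 (SE 0.19, adjusted p = 2.8e-08) against 6 days of ICM. After 3 and 6 days of ICM it was −0.59 (adjusted p = 0.25) and 0.17 (adjusted p = 0.66).

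ABCA13 (chr7:48211055-48687093, plus strand), the longest protein of the subfamily, had 17 and 10 counts in the control, 82 and 47 counts after 3 days, 23 and 27 after 6 days and 3 and 1 in MetaICM. It was highest after 3 days, and MetaICM held 4 counts in all. Its log2FC was 1.90 (SE 0.35, adjusted p = 0.0015) after 3 days, 0.51 (adjusted p = 0.30) after 6 days and −3.24 (SE 0.68, adjusted p = 0.0069) in MetaICM. From 3 to 6 days it fell by 1.39 on the log2 scale (adjusted p = 0.0021). The MetaICM call was lost without replicate 2 of MetaICM (log2FC −2.57, adjusted p = 0.12), and DESeq2 gave no adjusted p for it. ABCA2 (chr9:139901686-139923374, minus strand), a lipid transporter of lysosomes, received 30.7 and 22.2 CPM in the control, 37.2 and 29.9 CPM after 3 days, 25.8 and 21.2 CPM after 6 days and 36.3 and 36.4 CPM in MetaICM. It was not called against the control, with a log2FC of 0.34 (adjusted p = 0.18), −0.19 (adjusted p = 0.41) and 0.44 (adjusted p = 0.056), and MetaICM was higher than 6 days of ICM by 0.62 (adjusted p = 1.4e-05). This difference fell to or below the cutoff with upper-quartile factors (log2FC 0.60, adjusted p = 1.4e-05) and without replicate 2 of the 6-day group (log2FC 0.49, adjusted p = 5.1e-05). ABCA12, the lipid transporter of skin, stayed below 1 CPM and was called in none of the 3 comparisons in which it was tested with the settings used for all genes. It held 4 and 4 counts in the control and 16 and 15 after 3 days, with a log2FC of 1.597 (adjusted p = 0.056), and was not tested against the control after 6 days or in MetaICM. The 3-day difference was called with the replicate block (log2FC 1.59, adjusted p = 0.034), with library totals (log2FC 1.67, adjusted p = 0.045) and with all 8 libraries in one fit (log2FC 1.601, adjusted p = 0.032).

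The ABCA3 promoter covers chr16:2390730-2390979 of hg19 on the minus strand and is shown for the member that stood highest in MetaICM relative to the control. Capitals mark a match to TGACNNNGC, the core of the antioxidant response element, which begins 197 bases before the start.
ABCA3: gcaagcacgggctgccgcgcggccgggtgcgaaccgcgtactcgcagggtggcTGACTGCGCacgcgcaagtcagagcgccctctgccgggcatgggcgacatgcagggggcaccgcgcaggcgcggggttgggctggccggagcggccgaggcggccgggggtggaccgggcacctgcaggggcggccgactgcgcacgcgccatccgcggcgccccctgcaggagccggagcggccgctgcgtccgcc

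Of the dimer-forming transporters of mitochondria and lysosomes, ABCB6 and ABCB9 rose at both time points and ABCB10 fell after 3 days. ABCB6 (chr2:220074494-220083680, minus strand), a porphyrin transporter, received 58.3 and 39.8 CPM in the control, 152 and 130.3 CPM after 3 days, 142 and 146 CPM after 6 days and 52.9 and 51.2 CPM in MetaICM. The ICM libraries overlapped each other and lay far above control and MetaICM, which also overlapped. Its log2FC was 1.51 (SE 0.17, adjusted p = 3.3e-05) after 3 days and 1.54 (SE 0.16, adjusted p = 3.3e-05) after 6 days, and MetaICM differed from the control by 0.06 (adjusted p = 0.79). ABCB9 (chr12:123405495-123451056, minus strand), a peptide transporter of lysosomes, received 6.13 and 4.42 CPM in the control, 8.41 and 8.84 CPM after 3 days, 12.1 and 11.5 CPM after 6 days and 9.23 and 7.74 CPM in MetaICM. All treated libraries were above the control. The log2FC was 0.69 (SE 0.23, adjusted p = 0.043) after 3 days, 1.13 (SE 0.20, adjusted p = 0.0013) after 6 days and 0.65 (SE 0.21, adjusted p = 0.046) in MetaICM.

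Of the ABCB9 calls, that at 6 days held in every alternative run. The call at 3 days was lost with DESeq2 in place of edgeR (log2FC 0.69, adjusted p = 0.12), without replicate 1 of the 3-day group (log2FC 0.73, adjusted p = 0.13), without replicate 2 of the 3-day group (log2FC 0.66, adjusted p = 0.14) and without replicate 2 of the control (log2FC 0.47, adjusted p = 0.18). In MetaICM it was lost with DESeq2 in place of edgeR (log2FC 0.67, adjusted p = 0.11), with the libraries thinned to the smallest total (log2FC 0.65, adjusted p = 0.069), without replicate 1 of MetaICM (log2FC 0.55, adjusted p = 0.27), without replicate 2 of MetaICM (log2FC 0.80, adjusted p = 0.11) and without replicate 2 of the control (log2FC 0.46, adjusted p = 0.064).

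ABCB10 (chr1:229652329-229694454, minus strand), a mitochondrial transporter needed for hemoglobin synthesis in red cell precursors, received 21.5 and 22.6 CPM in the control, 13.2 and 11.8 CPM after 3 days, 15.0 and 14.4 CPM after 6 days and 22.3 and 22.5 CPM in MetaICM. Both ICM groups lay below control and MetaICM. The log2FC was −0.83 (SE 0.16, adjusted p = 0.0026) after 3 days and −0.60 (adjusted p = 0.0071) after 6 days, the second at the cutoff, which it passed with thinned libraries (log2FC −0.61, adjusted p = 0.0080) and without replicate 1 of the control (log2FC −0.65, adjusted p = 0.0020). MetaICM was higher than 6 days of ICM by 0.60 (adjusted p = 5.1e-05), just past the cutoff, and the call was lost with DESeq2 in place of edgeR (log2FC 0.60, adjusted p = 0.00099), with DESeq2's size factors (log2FC 0.60, adjusted p = 4.9e-05), with upper-quartile factors (log2FC 0.58, adjusted p = 6.5e-05), with library totals (log2FC 0.58, adjusted p = 8.4e-05), with the libraries thinned to the smallest total (log2FC 0.59, adjusted p = 0.00013) and without replicate 2 of the 6-day group (log2FC 0.58, adjusted p = 8.0e-05). ABCB8 (chr7:150725509-150744869, plus strand), of the inner mitochondrial membrane, was called in no comparison, with a log2FC of 0.45 (adjusted p = 0.032) after 3 days and 0.38 (adjusted p = 0.036) after 6 days.

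Of 16 tested genes of mitochondrial iron-sulfur and heme synthesis, 6 were higher and 1 lower at each ICM time point, with medians of 0.51 and 0.48. Over all genes tested, 8.85% were higher and 13.2% lower after 3 days, and 13.3% and 17.2% after 6 days. ALAS1, the first and limiting enzyme of heme synthesis, had 61.1 ± 12.3 CPM (SD, n = 2) in the control, 193 ± 6.197 CPM after 3 days, 215 ± 8.26 CPM after 6 days and 67.4 ± 1.87 CPM in MetaICM. It changed by 1.65 (adjusted p = 4.7e-06) after 3 days and 1.80 (adjusted p = 4.2e-06) after 6 days. FDXR, the ferredoxin reductase, changed by 1.72 (adjusted p = 1.5e-05), 1.47 (adjusted p = 4.6e-05) and, in MetaICM, 1.31 (adjusted p = 0.00044), and SLC25A38, a mitochondrial glycine carrier, by 0.75 (adjusted p = 0.0043) and 1.002 (adjusted p = 0.00033). In MetaICM 3 of the 16 were higher than in the control and none lower, beside 7.41% and 8.99% of all genes.

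The ABCB6 promoter is shown for the member with the largest increase among the dimer-forming transporters of mitochondria and lysosomes. It covers chr2:220083681-220083930 of hg19 on the minus strand, and capitals mark a match to TGACNNNGC that begins 152 bases before the start.
ABCB6: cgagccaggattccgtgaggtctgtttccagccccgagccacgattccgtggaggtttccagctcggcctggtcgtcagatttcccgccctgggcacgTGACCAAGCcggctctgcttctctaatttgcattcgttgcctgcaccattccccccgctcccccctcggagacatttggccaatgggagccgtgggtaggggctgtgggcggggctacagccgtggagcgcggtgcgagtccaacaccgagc

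In subfamily D, ABCD3 and ABCD4 were called in no comparison. ABCD3 (chr1:94883933-94984219, plus strand), which imports branched acyl chains, had a log2FC of 0.22 (adjusted p = 0.21) after 3 days and 0.42 (adjusted p = 0.0096) after 6 days, and ABCD4, which serves the export of cobalamin from lysosomes, 0.09 (adjusted p = 0.68) and −0.04 (adjusted p = 0.81). Of 15 tested genes of peroxisomal oxidation and biogenesis, 1 was higher after 3 days, 4 after 6 days and 4 in MetaICM. The shares of all genes called higher were 8.85%, 13.3% and 7.41% in this order, and 13.2%, 17.2% and 8.99% were lower. None of the 15 was lower in edgeR's test, in DESeq2 or at an unadjusted p under 0.05 in edgeR's test. HSD17B4, an enzyme of beta-oxidation, changed by 0.45 (adjusted p = 0.020) after 3 days and 1.01 (adjusted p = 6.5e-05) after 6 days. PEX19 and PEX3, which insert peroxisomal membrane proteins, changed by 0.91 (adjusted p = 0.00026) and 0.84 (adjusted p = 0.00065) after 6 days.

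Of the soluble members, which have no membrane part, ABCF3 was called after 6 days and no other was called in any comparison. ABCF3 (chr3:183903863-183911795, plus strand) received 52.3 and 45.4 CPM in the control, 71.4 and 67.7 CPM after 3 days, 75.7 and 85.9 CPM after 6 days and 64.4 and 61.0 CPM in MetaICM, and all treated libraries lay above the control. Its log2FC was 0.50 (adjusted p = 0.015) after 3 days, short of the cutoff, and 0.71 (SE 0.13, adjusted p = 0.0013) after 6 days. ABCE1 (chr4:146019463-146050676, plus strand), which splits ribosomes after termination, had 134 and 124 CPM in the control, 115 and 102 CPM after 3 days, 168 and 161 CPM after 6 days and 126 and 119 CPM in MetaICM. It was lowest after 3 days and highest after 6 days, with a log2FC of −0.25 (adjusted p = 0.15), 0.33 (adjusted p = 0.029) and, between the time points, 0.58 (adjusted p = 0.00014), none past the cutoff. It shares 109 exon bases with ANAPC10 on the opposite strand. ABCF2 shares 1953 exon bases on the same strand with LOC114483834. Of 18 partners in ribosome recycling and translation initiation, none was called against the control in edgeR's test at either ICM time point or in MetaICM, with medians of −0.05, 0.09 and 0.11. At an unadjusted p under 0.05, 2 lay higher and 6 lower after 3 days, 4 and 3 after 6 days and 1 each in MetaICM, and DESeq2 called none. Over all genes tested, edgeR called 8.85% higher and 13.2% lower after 3 days, and 13.3% and 17.2% after 6 days. In MetaICM the shares were 7.41% and 8.99%.

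ABCC9 (chr12:21950324-22089628, minus strand) is no transporter but a regulatory subunit of ATP-sensitive potassium channels. It received 6.13 and 5.73 CPM in the control, 4.28 and 6.31 CPM after 3 days, 8.51 and 9.61 CPM after 6 days and 5.61 and 4.15 CPM in MetaICM. The 6-day libraries were above all others, and the 3-day libraries overlapped those of the control and of MetaICM. Its log2FC was −0.19 (adjusted p = 0.63) after 3 days and 0.60 (adjusted p = 0.028) after 6 days, the second just short of the cutoff, and 0.79 (SE 0.20, adjusted p = 0.010) between them. The 6-day value passed the cutoff with upper-quartile factors, library totals, all genes that have a count, thinned libraries and without replicate 1 of the control. The call between the time points was lost without replicate 1 of the 3-day group (log2FC 0.50, adjusted p = 0.072) and without replicate 2 of the 6-day group (log2FC 0.69, adjusted p = 0.069). MetaICM differed from 6 days of ICM by −0.90 (adjusted p = 0.00018) on the log2 scale.

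**Figure D4:**
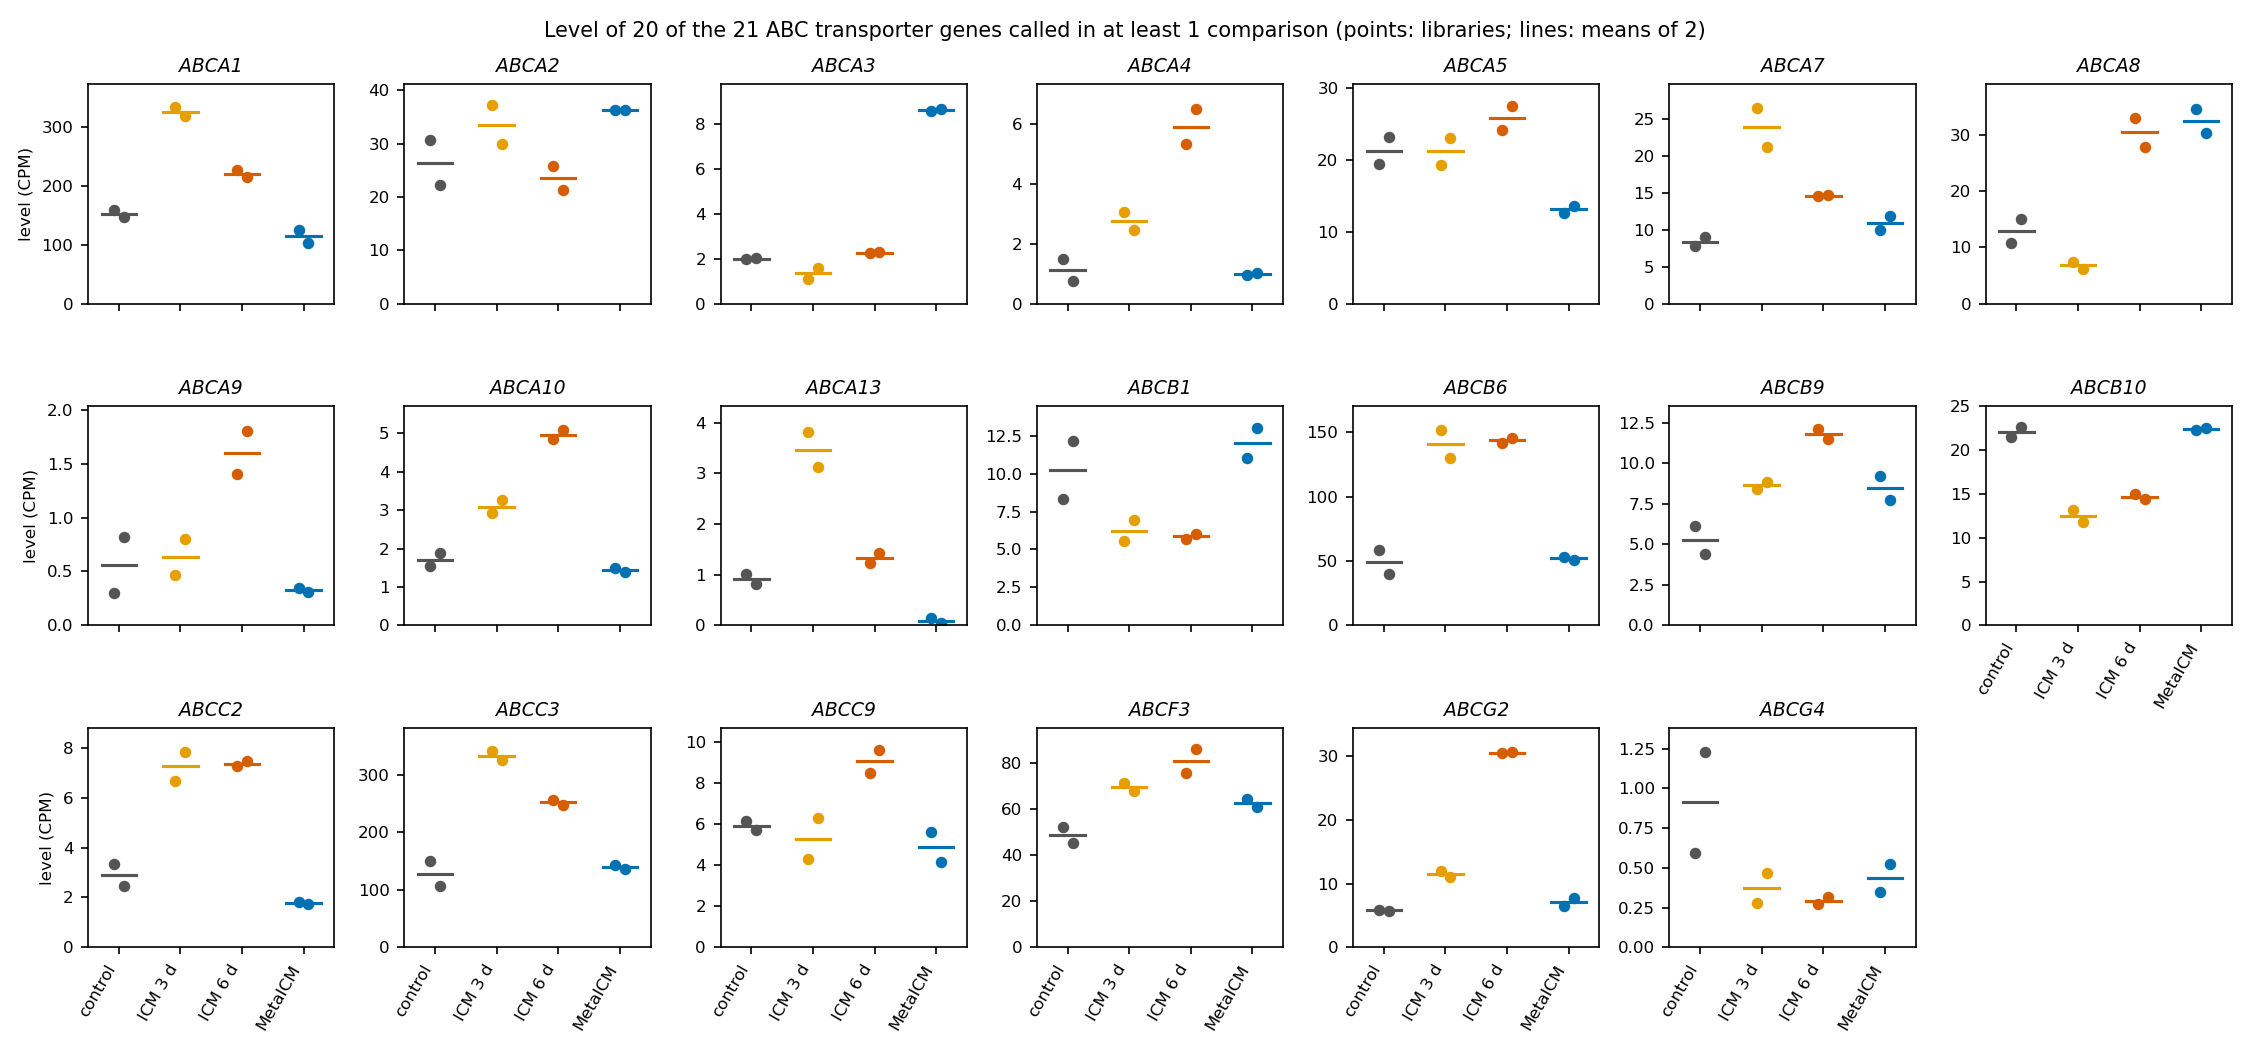
Level in CPM (vertical axes, each from 0) of 20 of the 21 members called in at least 1 of 5 comparisons, with a point for each of 2 libraries per condition and a line at their mean. ABCG2 rises from 5.83 and 5.73 CPM in the control to 30.5 and 30.6 CPM after 6 days, and ABCA3 stands at 8.58 and 8.66 CPM in MetaICM.

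MetaICM differed from 6 days of ICM in 15 members, of which 11 were lower. The largest differences among the lower ones were −3.76 for ABCA13, −2.59 for ABCA4, −2.28 for ABCA9, −2.10 for ABCG2 and −2.04 for ABCC2 on the log2 scale. ABCB6, ABCA1 and ABCC3 were lower too, with a log2FC of −1.47 (adjusted p = 4.2e-13), −0.95 (adjusted p = 4.9e-09) and −0.86 (adjusted p = 1.9e-09). The 4 higher members were ABCA3, ABCA2, ABCB10 and ABCB1, the last with a log2FC of 1.03 (adjusted p = 6.9e-06). Of the lists, 13 of 24 glutathione genes were lower in MetaICM than after 6 days and 3 higher, and 9 of 12 fibroblast markers were higher and none lower. In this comparison 15.7% of all genes tested were higher and 12.0% lower.

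The other 7 members had too few counts for any test. ABCG5 had 28 counts over all libraries, ABCB5 had 6, ABCB11 had 5, ABCC13, a pseudogene, had 4, ABCC8 and ABCD2 had 2 each, and ABCC12 had 1. ABCB5 was at 0 counts in both control libraries, which allows a level of up to 0.101 CPM by counting error alone. ABCG5 and ABCG8 are read in opposite directions from starts 131 bases apart, and ABCC12 and ABCC11 are 19002 bases apart on the same strand.

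The RefSeq table of promoters (GRCh38.p14) held 35 of the 46 members with 53 windows of 250 bases before a start, and each window matched hg19 exactly once. Windows of 1 gene can overlap. Searched on both strands, TGACNNNGC was found in 9 of the 53 windows (16.98%) and in 10.9% of all 35116 promoters, TATAAA in 6 (11.3%) and in 10.7%, and the E-box CACGTG in 9 (16.98%) and in 6.34%. The GC box GGGCGG was in 25 windows (47.2%) and in 42.6% of all promoters, and the nuclear receptor motif AGGTCA in 2 (3.77%) and in 12.1%. The 2 motifs marked in capitals overlapped in no window. Of the members called higher at both ICM time points and present in the table, ABCB6 and ABCB9 had a match to TGACNNNGC in this stretch. ABCA7, ABCC2 and ABCG2 had none. The ABCB9 match lay before a start outside its counted exons, and the window nearest its counted exons had none. The other members with a match were ABCA2, ABCA3, ABCC4, ABCC10, ABCD4, ABCF1 and ABCG4, which were not called higher at both time points.

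Of family members under other symbols, CFTR, a chloride channel, was lower than the control in all 3 treated groups, with a log2FC of −0.81 (adjusted p = 0.0070) after 3 days, −1.15 (adjusted p = 0.0020) after 6 days and −1.74 (adjusted p = 0.00024) in MetaICM. TAP1, a peptide transporter of antigen presentation, was higher in MetaICM, with a log2FC of 1.002 (adjusted p = 0.0025), and no other gene of that list was called against the control, of 5 tested after 3 days and 6 in the other comparisons. Over all genes tested, 8.85% were higher and 13.2% lower after 3 days, and 13.3% and 17.2% after 6 days. In MetaICM 7.41% were higher and 8.99% lower.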

How the data were processed

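Factory RNA-Seq of IMR90 was analysed in 8 libraries, 2 in each of 4 conditions. The authors deposited, for each library, raw counts of read pairs on the exons of RefSeq genes (hg19), made with featureCounts (version 1.6.3) per the file headers. Pairs were counted without regard to strand, as primary alignments with both ends mapped and no chimeric pairs. STAR (version 2.6.0c) is named in the submitters' processing notes. Conditions were compared 2 at a time with edgeR (version 4.0.16, R 4.3.3), using TMM, filterByExpr at a count minimum of 10, the quasi-likelihood test and Benjamini-Hochberg adjustment over all genes tested. The fit was tested on simulated data. Promoter windows came from RefSeq (GRCh38.p14) and were placed on hg19 by exact match to GRCh37. Tables and figures used Python 3.11.15, pandas 2.3.3 and matplotlib 3.10.9. Members called at least once, members of subfamilies A and C with at least 1 CPM in a library and up to 3 called genes of each other list are named. Results that name 2 of the members are not reported here, though both stay in all counts. The members and lists were chosen with earlier results of these data known. Alternatives were DESeq2 (version 1.42.0), other scalings and filters, an adjusted p of 0.01, all 8 libraries in one fit, a replicate block, thinning and leaving out each library. Limits from counts of 0 use 3 counts. They cover counting error only.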

Additional observations from a re-analysis of the deposited data

Results flagged for a closer look

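The response to ICM, measured against the control, differed between 3 and 6 days in 8 members by the direct comparison of the 2 treated groups, in edgeR's quasi-likelihood test with an adjusted p under 0.05 and an absolute log2FC over 0.6. The log2FC of 6 days against 3 days was positive for ABCA4 (1.07), ABCA8 (2.14), ABCA9 (1.38), ABCA10 (0.68), ABCC9 (0.79) and ABCG2 (1.40). It was negative for ABCA7 (−0.72) and ABCA13 (−1.39). Of these calls, those of ABCA7, ABCA9, ABCA10 and ABCC9 were lost in some alternative runs, as given above. Direct comparison is the test of the difference here, since both responses are read against the same control libraries. Over all genes tested, 3.53% were higher and 4.54% lower after 6 days than after 3 days.

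The same comparison of MetaICM with 6 days of ICM set 15 members apart, when 15.7% of all genes tested were higher in MetaICM and 12.0% lower. The log2FC was positive for ABCA2 (0.62), ABCA3 (1.92), ABCB1 (1.03) and ABCB10 (0.60). It was negative for ABCA1 (−0.95), ABCA4 (−2.59), ABCA5 (−0.98), ABCA9 (−2.28), ABCA10 (−1.79), ABCA13 (−3.76), ABCB6 (−1.47), ABCC2 (−2.04), ABCC3 (−0.86), ABCC9 (−0.90) and ABCG2 (−2.10). The calls of ABCA2 and ABCB10 were lost in some alternative runs, as given above. With 2 libraries per condition, no test for outlying libraries was possible.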

How the results depend on the processing

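The counts of members called higher after 3 days (10) and after 6 days (12) and of those lower in MetaICM than after 6 days (11) stayed within 1.5 times under all alternatives, at 8 to 14, 10 to 13 and 10 to 12. In the comparisons of a member that were called in at least 1 setting, no direction changed. Counts of the smaller groups moved. Members lower after 6 days (2) came to 1 with DESeq2, with library totals, with at least 10 counts in every library and with all genes that have a count, and to 0 at an adjusted p of 0.01. Members lower in MetaICM than in the control (2) came to 1 with DESeq2, with at least 10 counts in every library and with thinned libraries. The DESeq2 count leaves out ABCA13, for which that tool gave no adjusted p. Members higher in MetaICM than after 6 days (4) came to 2 with upper-quartile factors. For these moves the cause was not tested beyond the fewer genes kept by the stricter filter. With each library left out in turn, the ranges were 1 to 3 for members lower after 3 days, 0 to 3 for those lower after 6 days and 1 to 3 for those lower after 6 than after 3 days. They were 2 to 5 and 0 to 2 for members higher and lower in MetaICM than in the control, and 2 to 4 for those higher in MetaICM than after 6 days. The library left alone in its condition is assumed to vary like the other group.

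The replicate numbers share no stated batch, and the correlations of the replicate differences between the compared conditions were 0.17, 0.05, 0.08, −0.02 and 0.02, so the numbers were not taken to pair the libraries. With the replicate block, 12 members were higher and 3 lower after 3 days, ABCA10 and ABCA12 being the added ones, and 12 and 2 after 6 days, and no count moved by over 1.5 times.

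Members below about 1 CPM rest on few counts, and differences for them were detectable only when large. Having 2 libraries per condition limits every test.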
